A study of Mus musculus with 12 samples.

Results

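Round spermatids (RS) of mice homozygous for a catalytically dead form of TENT5C (Tent5c dcat/dcat) were compared with RS of Tent5c wt/wt mice, 3 libraries against 3. A contig of the deposited count table was included if 2 or more libraries of either genotype gave it 10 or more reads. These were 10998 of the 12114 contigs in the table, and the other 1116 lay below that minimum. They comprised 10559 transcripts and 439 contigs named for a repeat element. Counts were also added up by gene symbol, which gave 7284 units, 6693 of them gene symbols and the rest unnamed transcripts or repeats kept single.

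The series holds 12 libraries, 3 each of RS and elongated spermatids (ES) of both genotypes, and the 6 RS libraries are described here. Spermatids were sorted from testes of adult males by DNA content, red fluorescence and light scatter after Hoechst and propidium iodide staining. Each library was made from the pooled poly(A) RNA of 3 mice and sequenced as RNA molecules on nanopores, so that a read is the record of 1 RNA. The dcat allele is a germline change on a C57BL/6 background, carried by every cell of the animal and not by spermatids alone. The labels name no other allele and no treatment in either group. By the study's reporting summary, each sorting session handled a mouse of each genotype, littermates were used in both groups, and RS and ES were taken from the same mice. P-values measure the spread between pools, and the spread between single mice cannot be seen.

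TENT5C is a noncanonical cytoplasmic poly(A) polymerase, an enzyme that adds adenosines to the tails of finished mRNAs. RS, the haploid products of meiosis, still transcribe, and they store many mRNAs in repressed form for the later phase in which the nucleus is compacted and the flagellum is built after transcription has stopped. The comparison asks whether loss of the polymerase activity changes how much of each RNA is counted in RS, which is a separate quantity from the length of its tail. RNA was selected by its tail, and reads were kept if the tail passed a quality check. Counting therefore depended on having a tail.

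RS libraries held 604637 to 1359427 counts. Under these depths 3 counts, taken as the floor of detection, correspond to 1.73 to 3.83 TMM-scaled CPM (counts scaled to a common library size with a trimmed-mean correction). All 12 RS markers on a list of acrosomal, kinase and transcription factor genes were present, at a summed 2898 to 3173 CPM. Markers of other cells were summed over the listed genes found in the table. Spermatocyte markers (15 of 23 listed) reached 2170 to 2504 CPM, whereas spermatogonial markers (2 of 13) reached 23.9 to 35.3, Leydig cell markers (7 of 13) 90.3 to 160, Sertoli cell markers (9 of 16) 28.5 to 112, and macrophage and blood markers (2 of 12) 5.43 to 13.2 CPM. None of the 9 peritubular and vascular markers was in the table. Star, Hsd3b1, Sox9, Amh and Wt1 were not found either. Those found included Cyp11a1, Cyp17a1 and Insl3 of Leydig cells and Clu, Dhh and Cldn11 of Sertoli cells. In each list the ranges of both genotypes overlapped. Their part in the results was not tested.

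Tent5c itself, at chr3:100468057-100489324 (GRCm38, the build used for all coordinates), had 231, 331 and 341 CPM in wt/wt against 267, 342 and 395 CPM in dcat/dcat. The genotypes overlapped, with a log2 difference (dcat/dcat minus wt/wt, as throughout) of 0.15 and a 95% interval of -0.25 to 0.55 (edgeR q = 0.999997). A substitution in the coding sequence does not alter counts by itself, so that this level is no check of the genotype labels.

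No contig was called between the genotypes when each group was given its own mean, which is not the same as no change. This fit counts variation with replicate number, described below, as spread within groups. Fewer contigs had an unadjusted p under 0.05 than that threshold allows by chance. In edgeR's quasi-likelihood test 0 of 10998 contigs (0%) had a Benjamini-Hochberg adjusted p (q) at or under 0.05. The smallest q was 0.999997, and 95 contigs (0.864%) had an unadjusted p under 0.05, with 51 of them higher in dcat/dcat (0.464%) and 44 lower (0.4%). DESeq2 also called 0 contigs (0%) and gave 33 an unadjusted p under 0.05 (0.3%). By gene sum edgeR called 0 of 7284 (0%), with a smallest q of 0.101 and 106 (1.46%) at an unadjusted p under 0.05. DESeq2 called 1 gene (0.0137%), Mnd1, and gave 29 an unadjusted p under 0.05 (0.398%). The median log2 difference was 0.01 for contigs and for genes, and the median absolute log2 difference was 0.152 for contigs and 0.126 for genes. In these bulk libraries fewer cells of a type and less RNA per cell cannot be told apart.

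Libraries carrying the same replicate number resembled each other across genotypes, which was taken into account by adding the number to the model as a block. With the block over all 12 libraries, 4 contigs (0.0364%) passed q of 0.05, and all 4 were higher in dcat/dcat. That model gives each replicate number a single shift shared by RS and ES, whereas the pairing of numbers was checked in RS libraries only. With a separate block for each stage 5 contigs passed (0.0455%), and with the 6 RS libraries alone 11 passed (0.1%), 8 of them higher (0.0727%) and 3 lower (0.0273%). By gene sum the same models called 4 (0.0549%), 5 (0.0686%) and 8 (0.11%). The models refit the same reads, so that their q-values are not separate lines of evidence. Fitted to the 6 RS libraries alone, the block leaves few residual degrees of freedom, and q leans on the spread shared across contigs. Exactly 4 contigs passed under all of these block models: the meiotic gene Mnd1, a retained-intron transcript of Nek7, a SINE-derived contig and the pseudogene Rps3a3. All 4 reached 10 reads in dcat/dcat libraries alone, so that the minimum on reads admitted them through the genotype in which they were high.

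**Figure D1:**
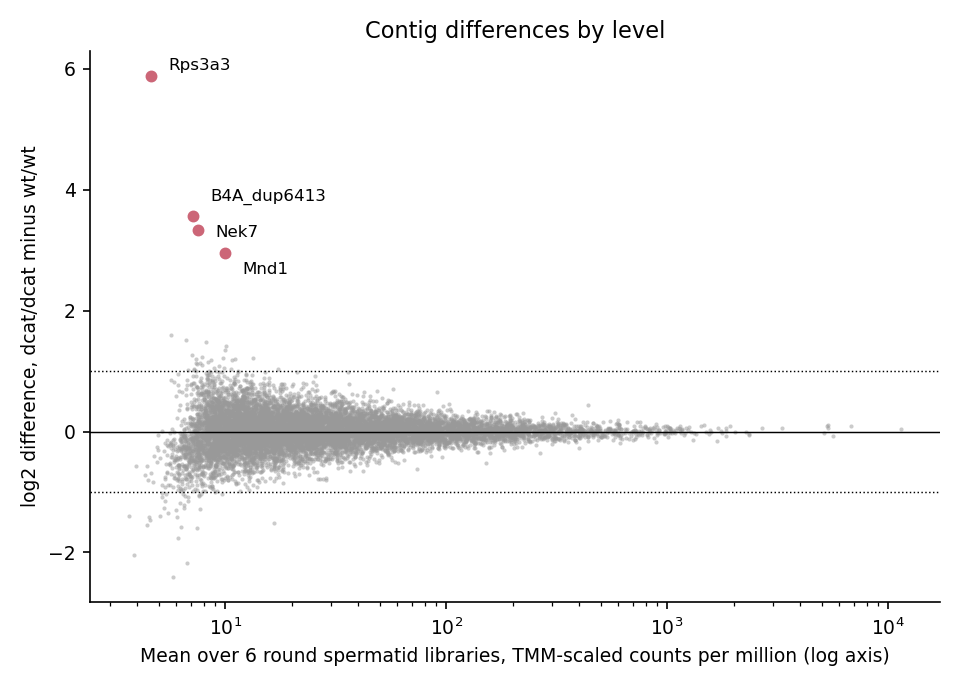
Each point is a contig; the x axis (log) is its mean over the 6 RS libraries in TMM-scaled CPM and the y axis its log2 difference, dcat/dcat minus wt/wt, with dotted lines at a 2-fold difference. The 4 contigs called with replicate number as a block over all libraries (red, labelled) lie at low levels and high differences, whereas abundant contigs lie near 0.

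Mnd1 forms with Psmc3ip the complex that helps recombinases carry out strand invasion in meiosis. Its contig, at chr3:84087933-84155786, had 5, 3 and 0 reads in wt/wt RS against 10, 14 and 30 reads in dcat/dcat RS. The genotypes did not overlap. With a library left out the log2 difference ranged from 2.18 (without wt/wt replicate 3, the library with no reads) to 3.71 (without wt/wt replicate 1). Scaled levels averaged 2.49 CPM ± 2.18 (SD, n = 3) in wt/wt against 17.5 CPM ± 6.91 in dcat/dcat, a log2 difference of 2.95 with an SE of 0.605 and an interval of 1.66 to 4.24. The edgeR q was 0.999997 without the block, 0.0256 with the block over all libraries, 0.00132 with a block within stage and 6.46e-07 within RS. In ES the reads numbered 2, 2 and 3 in wt/wt against 25, 20 and 37 in dcat/dcat, and the difference between the stages was not called (interaction log2 of -0.38, edgeR q = 1). Interactions, here and below, were tested without the block, so that RS and ES libraries were treated as independent although they came from the same mice.

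Psmc3ip was not higher in dcat/dcat. Its gene sum was 167, 166 and 169 CPM in wt/wt against 159, 156 and 156 CPM in dcat/dcat, so that the genotypes lay apart with every dcat/dcat library lower (log2 difference of -0.09, interval of -0.38 to 0.20, edgeR q = 0.999928). Its protein-coding contig had 164, 130 and 137 CPM in wt/wt against 159, 125 and 119 CPM in dcat/dcat, and overlapped between the genotypes with a log2 difference of -0.10. The other 14 tested spermatocyte markers, Psmc3ip included, had gene sums between -0.24 and 0.13 on the log2 scale, and none of them had an unadjusted p under 0.05 by edgeR. The TMM-scaled sum of all 15 markers was 1693, 1869 and 1732 CPM in wt/wt against 1708, 1837 and 1677 CPM in dcat/dcat, with the genotypes overlapping. With a mean gene sum of 17.1 CPM in dcat/dcat, Mnd1 adds little to the sum of the markers. Which cells its reads came from was not tested.

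The Nek7 contig, at chr1:138513745-138619704, is a transcript that retains an intron of a NIMA-related kinase gene. It had 0, 0 and 5 reads in wt/wt against 15, 10 and 17 reads in dcat/dcat, without overlap. The log2 difference was 3.33 with an interval of 1.82 to 4.83 (edgeR q = 0.999997 without the block and 0.0356 with it). Its size is uncertain, since the wt/wt mean of 0.959 CPM lay under the floor of detection. Without wt/wt replicate 1 the log2 difference was 2.81. All wt/wt reads came from replicate 3, and without that library the dcat/dcat mean was at least 4.77-fold higher, against a floor of 3 counts in each of the remaining wt/wt libraries. No other contig of Nek7 was tested, so that the gene sum carried the same counts. In ES the reads numbered 0, 0 and 0 in wt/wt against 6, 2 and 3 in dcat/dcat (interaction edgeR q = 1).

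The contig B4A_dup6413 is named for a B4 element, a short interspersed repeat of rodents. It had 0, 0 and 4 reads in wt/wt against 14, 7 and 21 reads in dcat/dcat, again without overlap. The log2 difference was 3.57 with an interval of 2.06 to 5.09 (edgeR q = 0.999997 without the block and 0.0256 with it). The wt/wt mean of 0.768 CPM lay under the floor of detection, so that the size of this difference is uncertain. Without wt/wt replicate 1 it was 3.07. Here too wt/wt replicate 3 held all wt/wt reads, and without it the dcat/dcat mean was at least 4.59-fold higher on the same floor. The name gives no genome position, and none is printed. As a whole, the 439 repeat-named contigs had a median log2 difference of -0.03 by gene-level scaling, with 195 higher and 244 lower.

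Rps3a3 is a processed pseudogene of Rps3a1, which encodes a protein of the small ribosomal subunit. Its contig, at chr13:108670603-108671397, had 0, 0 and 0 reads in wt/wt against 0, 11 and 17 reads in dcat/dcat, and the genotypes touched at 0. Against a floor of 3 counts in each wt/wt library the dcat/dcat mean was at least 3.65-fold higher (edgeR q = 0.999997 without the block and 0.0256 with it). The bound was 2.71-fold to 5.48-fold with a library left out, highest without dcat/dcat replicate 1. In ES the reads were 0, 0 and 0 against 0, 10 and 7, so that in both stages the dcat/dcat library numbered 1 had none. The transcript is 98.9% identical to that of Rps3a1, with 9 mismatches over 795 bases, and how reads were divided between them was not tested. A stretch of 30 bases (bases 519 to 548 of Rps3a3 and 652 to 681 of Rps3a1, 5′ to 3′, from the GENCODE transcripts) shows how little separates them, with the only differing base in capitals.
Rps3a3: ccgagaggtgcagacCaatgacttgaagga
Rps3a1: ccgagaggtgcagacTaatgacttgaagga
Rps3a1 itself was far more abundant. Its gene sum was 132, 175 and 158 CPM in wt/wt against 161, 199 and 173 CPM in dcat/dcat, with a log2 difference of 0.20 and an interval of -0.18 to 0.57.

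The contig added by a block within stage was ORR1B1_dup2496, named for a long terminal repeat of the MaLR class. It had 24, 16 and 62 reads in wt/wt against 10, 6 and 10 reads in dcat/dcat. Scaled to depth the wt/wt libraries (19.3, 18.5 and 35.7 CPM) all lay above the dcat/dcat libraries (10.4, 7.66 and 8.06 CPM). The log2 difference was -1.51, with q = 0.0181 in edgeR with the block within stage, 0.17 with the block over all libraries and 0.000621 within RS. The reads in ES were 18, 28 and 10 in wt/wt against 7, 6 and 9 in dcat/dcat.

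The remaining 6 contigs were called only when the block was fitted to the 6 RS libraries alone, and are named after their values were seen. Of Tor1aip1, which encodes a lamina-associated protein of the inner nuclear membrane, there were 2. The retained-intron contig, at chr1:156030173-156036147, had 14, 8 and 22 reads in wt/wt against 1, 3 and 3 in dcat/dcat. All dcat/dcat libraries were at or under 3 reads, and the wt/wt mean was at least 3.54-fold higher (edgeR q = 0.0241). It passed the minimum on reads only through wt/wt, the genotype in which it was high. The contig annotated as a target of nonsense-mediated decay went the other way, with 7.22, 27.7 and 37.4 CPM in wt/wt against 42.5, 43.4 and 58 CPM in dcat/dcat (log2 difference of 0.98, edgeR q = 0.00176). The protein-coding contigs of Tor1aip1 each had a log2 difference of -0.27, with intervals of -0.82 to 0.28 and -0.89 to 0.35.

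The other 4 contigs differed more between replicate numbers than between genotypes. Rnaseh2a, the catalytic subunit of ribonuclease H2, had 36.9, 84.2 and 89.8 CPM in wt/wt against 51.9, 130 and 152 CPM in dcat/dcat (log2 difference of 0.66, q = 0.00308 in the edgeR model of RS with the block). Glul, glutamine synthetase, had 20.1, 55.4 and 56.4 CPM against 18.7, 76.6 and 118 CPM (0.71, edgeR q = 0.0156). Gpx4-ps2, a copy of Gpx4 whose transcript is 99.7% identical to it with 2 mismatches, had 116, 529 and 468 CPM against 149, 812 and 556 CPM (0.45, edgeR q = 0.00968). Gm17359 had 259, 152 and 125 CPM in wt/wt against 193, 88.1 and 94.3 CPM in dcat/dcat (log2 difference of -0.51, edgeR q = 0.013). Without the block, the log2 difference of Glul was 0.09 when dcat/dcat replicate 3 was left out, and that of Gpx4-ps2 was -0.07 without dcat/dcat replicate 2. The genotypes overlapped for each of these 4 contigs, and none had an unadjusted p under 0.05 without the block.

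**Figure D2:**
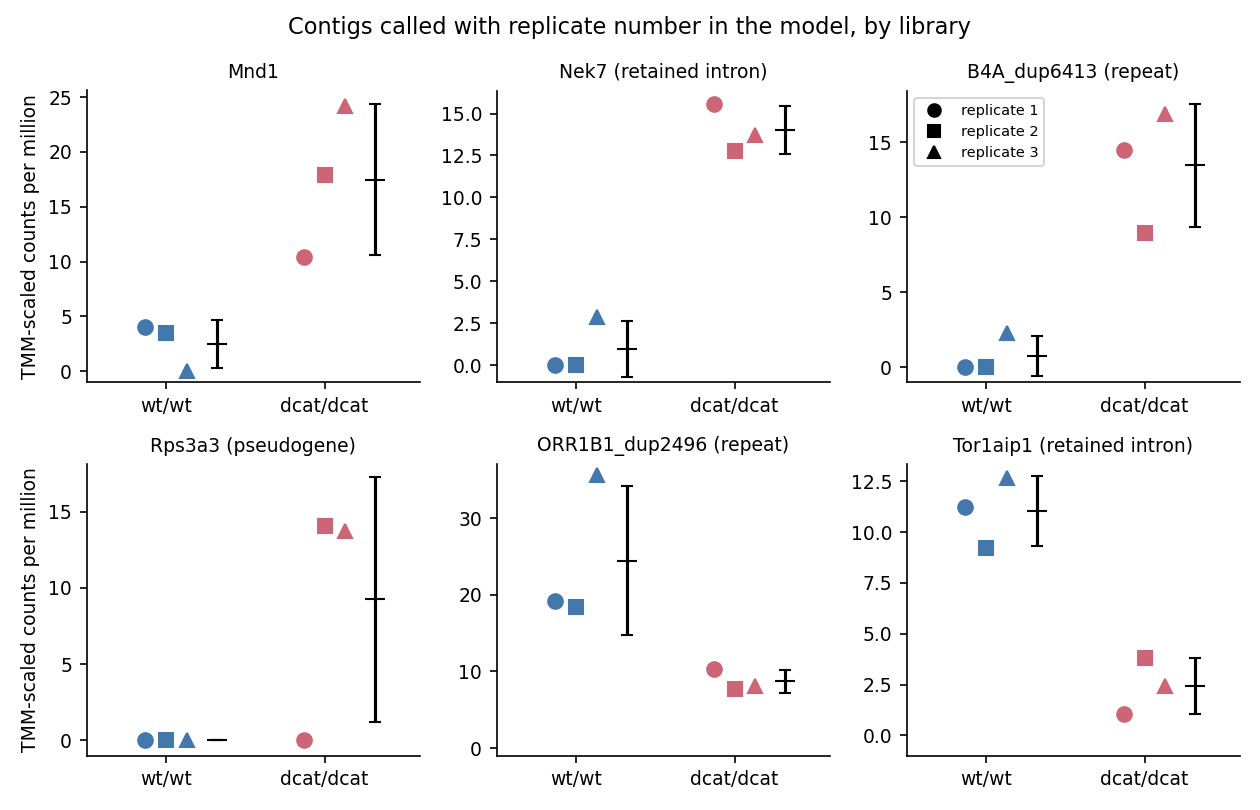
TMM-scaled CPM (y axes) in each RS library for the 4 contigs called under all block models and for ORR1B1_dup2496 and the retained-intron contig of Tor1aip1; marker shapes give the replicate number, and the horizontal bar with whiskers is the mean ± SD of 3 libraries. Mnd1, Nek7 and B4A_dup6413 are higher in every dcat/dcat library, Rps3a3 is at 0 in dcat/dcat replicate 1, and the last 2 are lower in every dcat/dcat library.

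In 576 contigs (5.24%) all dcat/dcat libraries lay on one side of all wt/wt libraries, 294 of them higher (2.67%) and 282 lower (2.56%). By gene sum there were 424 (5.82%), 219 higher (3.01%) and 205 lower (2.81%). The 10 contigs with a gene symbol and the smallest p in each direction are described next, and were selected for having groups apart. Besides Mnd1 and Nek7, none of them was called without the block or with the block over all libraries. Several others also passed the minimum on reads only through the genotype in which they were high. These were the contigs of Col20a1, Srrd, Lmf2, Lipe, Tor1aip1, Odf2l, Gatb, Gml, 1700029I15Rik and Muc1.

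Among the contigs on the higher side, a transcript of Gfer, a sulfhydryl oxidase of the mitochondrial intermembrane space, had 14.4, 10.4 and 16.7 CPM in wt/wt against 24.9, 30.6 and 29 CPM in dcat/dcat. Its log2 difference was 0.98 with an interval of 0.43 to 1.53 (edgeR q = 0.999997). A contig of the collagen gene Col20a1 followed with a log2 difference of 1.35 (3, 7 and 11 reads against 16, 12 and 14, interval of 0.56 to 2.15). Contigs of Srrd, of the lipase maturation factor Lmf2, of the hormone-sensitive lipase Lipe, of the enolase copy Eno1b, of Fam98a and of the signal peptide peptidase H13 had log2 differences of 1.19, 1.42, 1.15, 0.92, 1.04 and 0.78. The 10 contigs averaged between 11.7 and 33.4 CPM in dcat/dcat and between 0.959 and 17.4 CPM in wt/wt. Another transcript of Eno1b is 99.5% identical to that of Eno1, with 9 mismatches, so that reads assigned to this copy are of uncertain origin.

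On the lower side, Tor1aip1 was followed by Pde1c, a calcium- and calmodulin-dependent phosphodiesterase. Pde1c had 36.9, 34.6 and 36.8 CPM in wt/wt against 22.8, 19.1 and 20.1 CPM in dcat/dcat, with narrow spread in each genotype. Its log2 difference was -0.80 with an interval of -1.35 to -0.25. A contig of Odf2l, a centriole-associated relative of the outer dense fibre gene Odf2, had 16.9, 15 and 19 CPM against 8.3, 7.66 and 9.67 CPM (log2 difference of -0.97, interval of -1.68 to -0.27). Contigs of the calcium-binding Golgi protein Sdf4, the mitochondrial amidotransferase subunit Gatb, the kinesin light chain Klc4, Gml, the metabolite repair enzyme Naxe and the mucin Muc1 had log2 differences of -0.78, -1.28, -0.84, -1.27, -0.78 and -0.91. A contig of 1700029I15Rik was at 1, 3 and 3 reads in dcat/dcat, and its wt/wt mean was at least 2.14-fold higher. Among repeats, L1VL2_dup258, named for a LINE, had 13, 12 and 10 reads in wt/wt against 1, 1 and 3 reads in dcat/dcat, at least 3.21-fold higher in wt/wt (edgeR q = 0.999997). This contig, too, passed the minimum on reads through wt/wt alone.

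Some of these contigs lie on the chromosome that carries Tent5c. Chromosome 3 as a whole had 7 of 490 contigs (1.43%) at an unadjusted p under 0.05 by edgeR, beside 0.864% of all contigs. Within 10 Mb of Tent5c they were 0 of 144 and within 20 Mb 4 of 230 (1.74%). Mnd1 lies 16.4 Mb from it, Gatb 14.9 Mb, Naxe 12.4 Mb and Muc1 11.2 Mb, and Gatb, Naxe and Muc1 were lower while Mnd1 was higher. In the interval from Mnd1 to Muc1, chr3:84087933-89233381, 4 of 46 contigs (8.7%) had an unadjusted p under 0.05. Its ends were set at contigs named for their small p after the values were seen, which raises this share by construction. Over the longer stretch from Mnd1 to Tent5c they were 4 of 148 (2.7%). On chromosome 1 an interval of 17.5 Mb from Nek7 to Tor1aip1, likewise bounded by called contigs, held 4 of the 11 contigs called within RS with the block (0.1% of all contigs), among 32 tested. What the position contributes to these values was not tested.

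The data bound most genes to less than a 2-fold difference. The 95% interval of the log2 difference lay inside plus and minus 1 for 5722 of 7284 genes (78.6%) and for 6334 of 10998 contigs (57.6%). It did so for all 237 genes with at least 500 CPM (100%), for 1471 of 1474 genes between 100 and 500 CPM (99.8%) and for 1294 of 1301 between 50 and 100 CPM (99.5%). Below 10 CPM only 137 of 904 genes (15.2%) were bounded in this way, so that for the others the interval did not leave out a 2-fold difference. Intervals inside 1.5-fold were reached by 230 genes (97%) of the most abundant class and by 1317 (89.3%) of the class from 100 to 500 CPM. Absolute differences of 2-fold or more were seen in 37 genes, of which 33 averaged under 10 CPM and the other 4 between 10 and 50 CPM.

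The abundant mRNAs of RS were the same in both genotypes. The 20 genes with the highest mean in wt/wt were also the 20 highest in dcat/dcat, and included the chromatin proteins Prm1, Tnp1, Prm2 and Tnp2, polyubiquitin Ubb, the dynein light chain Tcte3, the sperm lactate dehydrogenase Ldhc, the mitochondrial mt-Co1 and mt-Co2, the manchette-associated Meig1, thymosin Tmsb10, the chaperonin subunit Tcp1 and glutathione peroxidase Gpx4. Taken library by library, the 20 highest genes of each library made up 8.42% to 11% of its counts in wt/wt and 8.94% to 10.8% in dcat/dcat. For the 20 genes highest by wt/wt mean, log2 differences ran from -0.11 to 0.10. All 20 intervals lay inside 2-fold, 16 of them inside 1.5-fold, and the genotypes overlapped for each of the 20 genes.

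Prm1, the first of the protamines that replace histones in the sperm nucleus, ranked first in both genotypes. It had 6096, 12413 and 15378 CPM in wt/wt against 7491, 11979 and 15268 CPM in dcat/dcat, a log2 difference of 0.04 with an interval of -0.54 to 0.61. Tnp1, which encodes transition protein 1, ranked second with 3350, 7370 and 8752 CPM against 4254, 7787 and 8570 CPM (log2 difference of 0.08, interval of -0.52 to 0.68). The libraries numbered 1 were low for both genes in both genotypes. The direction rested on single libraries, since the log2 difference of Prm1 was -0.26 without wt/wt replicate 1 and 0.32 without wt/wt replicate 3. Ubb, by comparison, had 5087, 5957 and 5839 CPM against 5225, 5569 and 5204 CPM, and moved from rank 3 to rank 6 with a log2 difference of -0.08. Tnp2 moved from rank 7 to rank 4 with a log2 difference of 0.10, and the ranks from 3 to 7 lay within the spread between libraries.

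**Figure D3:**
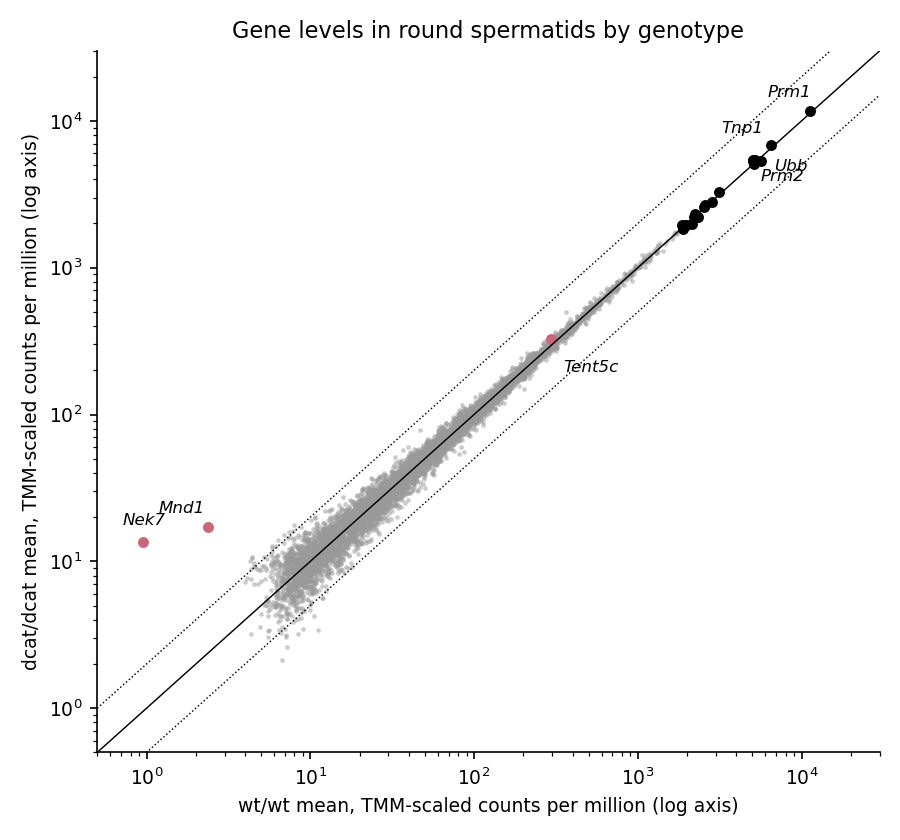
Mean level in wt/wt (x axis) and dcat/dcat (y axis) RS, in TMM-scaled CPM, of gene symbols with reads in both genotypes. Both axes are logarithmic, with the line of equality and dotted lines at a 2-fold difference. Rps3a3, which had no reads in wt/wt, is not drawn. The 20 most abundant genes (black) follow the line of equality; Tent5c lies near it, and Mnd1 and Nek7 (red) lie above the upper dotted line.

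Ranks were compared further by counting shared genes, since a read stands for 1 molecule and levels of different genes can be set side by side as numbers of molecules with a tail. The genotypes shared 97 of their top 100 and 479 of their top 500 genes, and Spearman's rho over 6693 gene symbols was 0.990 as a description. Per kilobase of transcript they shared 19 of 20, 97 of 100 and 494 of 500. Single libraries of different genotype and the same replicate number shared 471 to 472 of their top 500, against 438 to 459 for libraries of the same genotype. By rho over all genes the ranges overlapped, at 0.967 to 0.979 for the same number and 0.951 to 0.972 for the same genotype.

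The 27 gene lists that cover the machinery of spermatids and of the cell in general held 663 tested genes, of which 340 were higher in dcat/dcat and 323 lower. None was called without the block or with the block over all libraries, and q by edgeR without the block was 0.999928 for each list member given below. Of these genes 6 (0.905%, beside 1.46% of all genes) had an unadjusted p under 0.05 by edgeR, and in 30 (4.52%, beside 5.82% of all genes) the genotypes did not overlap. The interval lay inside 2-fold for 615 of them (92.8%). Medians of the lists ran from -0.08 (deadenylases) to 0.09 (mRNA storage proteins), beside 0.01 for all genes, and the summed level of each list overlapped between the genotypes. The lists were put together with earlier results of these data known, and the counts describe them without a test of the lists. Spaca6, Pan3 and Lsm14a, given below, passed the minimum on reads only through the genotype in which they were high.

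Among the genes of nuclear compaction, the protamines and transition proteins (5 genes, 4 higher and 1 lower, median of 0.08) summed to 15573, 31076 and 38051 CPM in wt/wt against 19363, 31241 and 38053 CPM in dcat/dcat. The sums of replicates 2 and 3 were nearly equal across genotypes, and that of replicate 1 was higher in dcat/dcat. Prm3, which unlike Prm1 and Prm2 encodes an acidic protein, was the member on the lower side, with 240, 457 and 486 CPM against 269, 333 and 464 CPM (log2 difference of -0.15, interval of -0.63 to 0.34). Linker and variant histones (6 of 18 listed genes tested) had a median of 0.00, with Hils1 at 424, 623 and 807 CPM in wt/wt against 497, 603 and 722 CPM in dcat/dcat.

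Genes of the flagellum and its accessory structures lay close to the median of all genes. The outer dense fibre and head-tail coupling list (16 genes, 8 higher and 8 lower) had a median of 0.02, with Odf2 at 1304 CPM ± 117 (SD, n = 3) in wt/wt against 1365 CPM ± 248 in dcat/dcat. Odf2l was the member with the smallest p, with a gene sum of 36, 35.5 and 41.9 CPM against 26.8, 18.8 and 29 CPM (log2 difference of -0.59, interval of -1.09 to -0.09). In the fibrous sheath list (11 genes, median of 0.05) Fsip1 stood at -0.18 and the sperm glyceraldehyde-3-phosphate dehydrogenase Gapdhs at 0.20 on the log2 scale. Axonemal dyneins, CFAPs and radial spokes (64 genes, 27 higher and 37 lower) had a median of -0.02, with the assembly factor Dnaaf5 at -0.52 (interval of -1.08 to 0.05) and Cfap58 at 0.21. Intraflagellar transport genes and kinesins (41 genes) had a median of -0.03, with Ift74 at -0.34 (interval of -0.73 to 0.05) and the genotypes apart, and the kinesin Kif2c at 0.24. Tubulins (10 genes, 3 higher and 7 lower) had a median of -0.05.

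The acrosome list (24 genes, 12 higher and 12 lower) had a median of -0.01. Its member with the smallest p was Spaca6, needed on sperm for fusion with the egg, with 8.09, 12.6 and 9.75 CPM in wt/wt against 5.74, 7.54 and 2.42 CPM in dcat/dcat (log2 difference of -0.98, interval of -1.90 to -0.07). Sperm ADAMs and their chaperones (25 genes) had a median of -0.03 with Adam34 on the lower side (interval of -1.98 to -0.02) and Adam18 at 0.28, and 4 of the 25 genes (16%, beside 5.82% of all genes) had genotypes apart, 2 in each direction. In the CatSper channel list (14 genes, 9 higher and 5 lower, median of 0.08) the auxiliary subunit Catsperb had 35.3, 31 and 33.8 CPM in wt/wt against 55.5, 45.2 and 41.9 CPM in dcat/dcat. Its log2 difference was 0.50 with an interval of 0.06 to 0.94. Catsperd had a log2 difference of 0.37 (interval of -0.01 to 0.76), and the pore-forming subunit Catsper3 one of -0.33 (interval of -0.78 to 0.13). In this list 3 of 14 genes (21.4%, beside 5.82% of all genes) had genotypes apart.

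Genes that act on poly(A) tails and on stored mRNAs were examined next, as they bear on the same step as TENT5C. The poly(A) polymerase and uridyltransferase list (8 genes, 6 higher and 2 lower) had a median of 0.02 and all 8 intervals lay inside 2-fold. Papolb, the testis-specific poly(A) polymerase, had 374, 376 and 407 CPM against 357, 379 and 427 CPM, and the uridyltransferase Tut1 had a log2 difference of 0.22 (interval of -0.18 to 0.62). Poly(A)-binding and CPEB proteins (9 genes, 7 higher and 2 lower) had a median of 0.07, with Pabpc1 at 910, 983 and 1006 CPM against 830, 1020 and 1183 CPM. Deadenylases (13 genes, 6 higher and 7 lower) had a median of -0.08, and Pan3, a subunit of a deadenylase, had 4.41, 3.44 and 5.73 CPM against 9.57, 12.6 and 5.64 CPM (log2 difference of 0.89, interval of -0.07 to 1.84).

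Of the mRNA storage proteins (14 genes, 11 higher and 3 lower, median of 0.09), the Y-box protein Ybx2 had 1072, 954 and 1135 CPM in wt/wt against 1117, 1045 and 1514 CPM in dcat/dcat (log2 difference of 0.22, interval of -0.15 to 0.59). Lsm14a had 14, 9.17 and 10.9 CPM against 5.74, 6.28 and 7.26 CPM (-0.82, interval of -1.61 to -0.02). Genes of the piRNA pathway and the chromatoid body (19 genes, 15 higher and 4 lower) had a median of 0.08, with Piwil2 at 0.40 and Tdrd5 at 0.19 and no unadjusted p under 0.05 by edgeR in 19 genes. Spermatid transcription factors (14 genes) had a median of 0.07, and Crem, the activator of many postmeiotic genes, had 279, 277 and 282 CPM against 299, 363 and 302 CPM (log2 difference of 0.20, interval of -0.17 to 0.56). The testis-specific serine kinases (7 genes) and the polyamine list (7 genes) had medians of 0.06 and 0.01.

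Metabolic and housekeeping lists were large and centred on 0. Cytosolic ribosomal proteins (81 genes, 34 higher and 47 lower) had a median of -0.01, 80 of 81 intervals inside 2-fold and 0 genes at an unadjusted p under 0.05 by edgeR. Nuclear-encoded oxidative phosphorylation genes (87 genes) had a median of -0.01, with Ndufs7 of complex I at -0.49 (interval of -0.95 to -0.02) and Sdha of complex II at 0.33 (interval of -0.06 to 0.73). The 11 mitochondrially encoded mRNAs ran from -0.08 to 0.07. Proteasome subunits (33 genes), chaperones (66 genes) and sperm glycolysis (17 genes) had medians of -0.02, 0.04 and 0.00, with Psmd12 at -0.26, the testis heat shock protein Hspa1l at 0.27 and the sperm enolase Eno4 at -0.41. By annotated transcript type, medians by contig were 0.01 for 9023 protein-coding contigs, 0.06 for 449 nonsense-mediated decay contigs and 0.08 for 424 retained-intron contigs.

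**Figure D4:**
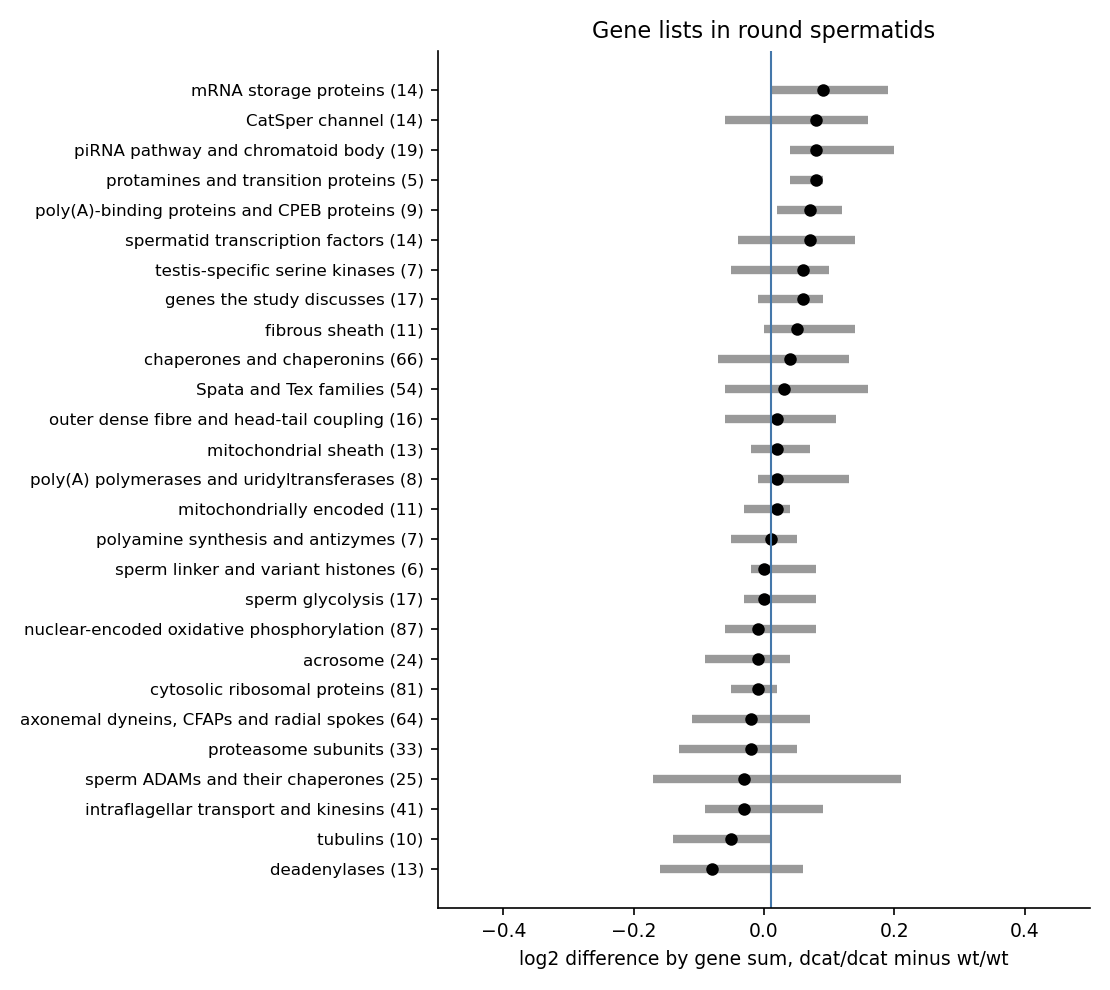
Median log2 difference (black points) and interquartile range (grey bars) of the tested genes of each of the 27 lists, with the number of genes in brackets; the blue line is the median of all 7284 genes. Medians run from -0.08 to 0.09, on both sides of the line at 0.01.

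The genes that the study itself discusses were taken by their most abundant contig, which gave 17 contigs. Ptgds, also among the 18 genes listed, lay below the minimum on reads and was not tested. Their log2 differences ran from -0.64 to 0.60, none had an unadjusted p under 0.05 by edgeR, and the genotypes overlapped for all 17. Odf1, a principal protein of the outer dense fibres, had 613, 821 and 836 CPM in wt/wt against 661, 733 and 835 CPM in dcat/dcat (log2 difference of -0.03, interval of -0.40 to 0.35). Insl3, a peptide hormone made by Leydig cells, had 10, 24 and 54 reads against 10, 7 and 27 reads, with a log2 difference of -0.64 and an interval as wide as -1.86 to 0.57. Wdr64 stood at the other end, with 16.9, 12.7 and 24.8 CPM against 18.7, 34.5 and 32.2 CPM (log2 difference of 0.60, interval of -0.01 to 1.22). For Insl3 and Wdr64 a 2-fold difference was not bounded by these data.

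The make-up of the libraries was compared by shares of counts. The 10 most abundant contigs took 5.4%, 7.36% and 7.97% of the counts in wt/wt against 5.9%, 7.43% and 7.84% in dcat/dcat (exact two-sided permutation test, p = 0.9). Repeat-named contigs took 1.19% to 1.28% in wt/wt against 1.19% to 1.23% in dcat/dcat (exact p = 0.6). Mitochondrially encoded contigs took 1.33% to 1.45% and 1.22% to 1.5% (exact p = 1), and ribosomal protein contigs 4.81% to 5.83% and 4.89% to 5.85% (exact p = 1). With 3 libraries against 3 the smallest p that this test can give is 0.1, so that it could not reach 0.05. Within replicate numbers, the repeat share was lower in dcat/dcat in each of the 3 pairs (exact paired permutation test, p = 0.25, the smallest that 3 pairs can give). Outside the 10 most abundant contigs, the repeat share was higher in dcat/dcat in 1 of the 3 pairs (exact paired permutation test, p = 0.5). The share of protamine and transition protein contigs, 2.3%, 4.09% and 4.88% in wt/wt against 2.75%, 4.11% and 4.92% in dcat/dcat, was higher in each of the 3 pairs (exact paired p = 0.25, and 0.7 without pairs).

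Replicate number accounted for more of the variation between RS libraries than genotype. Of the sum of squares of log2 CPM over all tested contigs, 10.6% went with genotype, 70.7% with replicate number and 18.7% with the rest, where equal contributions per degree of freedom would give 20% and 40%. For contigs with at least 50 CPM on average the shares were 5.23% and 85.2%. Libraries of different genotype and the same number correlated at 0.951 to 0.97 on log2 CPM, and libraries of the same genotype at 0.89 to 0.961. Of the lists, the protamines and transition proteins showed the widest span by number, with summed means of 17468, 31158 and 38052 CPM in numbers 1, 2 and 3 (2.18-fold from lowest to highest), while the genotype means differed 1.05-fold. The sources do not say which mice or sorting sessions went into the pools of each number.

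**Figure D5:**
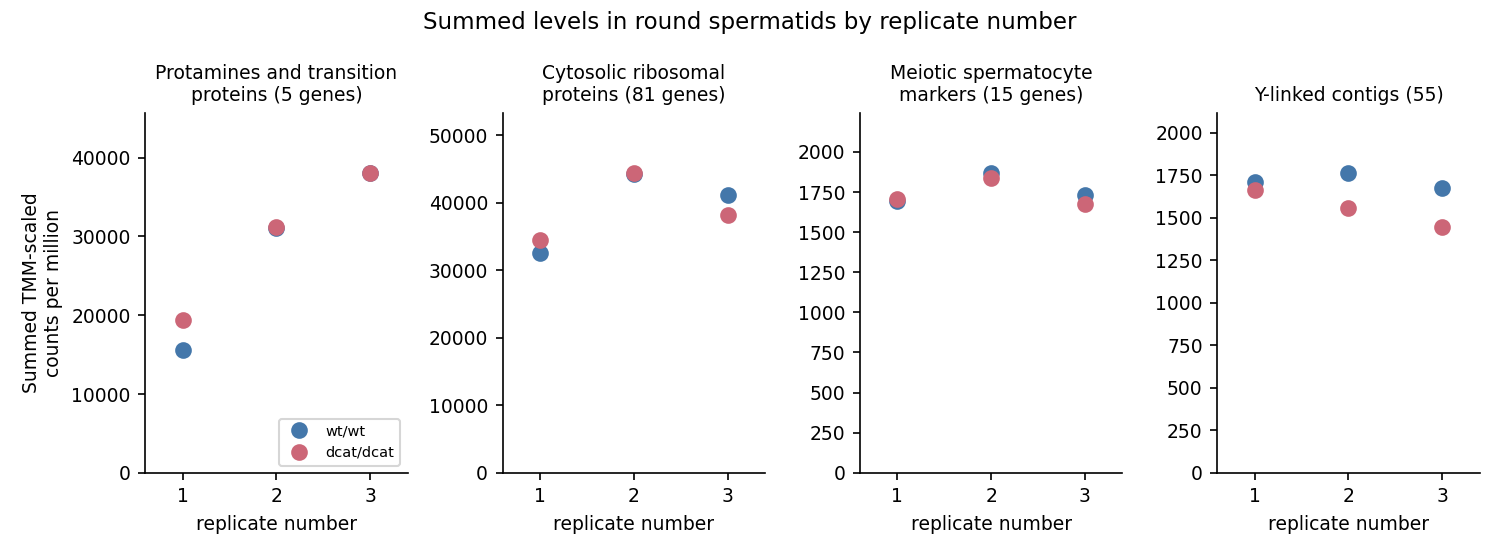
Summed TMM-scaled CPM (y axes, from 0) in the RS library of each replicate number and genotype for the protamines and transition proteins, the cytosolic ribosomal proteins, the spermatocyte markers and the Y-linked contigs. The protamine sums go from 15573 and 19363 CPM in the libraries numbered 1 to 38051 and 38053 CPM in those numbered 3, and the 2 genotypes lie close together at each number; the Y-linked sums lie lower in dcat/dcat at each number.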

How the data were processed

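The authors basecalled nanopore direct RNA reads with Guppy and aligned them with minimap2 (version 2.20-r1061 in the submitters' processing notes, which also name mm10, SAMtools and DESeq2; the study's methods name a later release) to GENCODE transcripts and repeat sequences. They kept reads that passed Nanopolish and deposited raw counts of reads per contig, whole numbers without normalization, in 1 table of the 12 libraries. The other deposited tables hold their DESeq2 fold changes and adjusted p-values and were not used. How reads of near-identical copies were divided was not tested.

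From the counts, edgeR 4.0.16 (R 4.3.3, limma 3.58.1) fitted 1 mean per group over 12 libraries with TMM scaling, on contigs to which 2 or more libraries of either RS genotype gave 10 or more reads. Its quasi-likelihood test was followed by Benjamini-Hochberg adjustment over all contigs (or gene sums), with q at or under 0.05. Sums by symbol used GENCODE names, which matched 98.5% of transcript contigs. Intervals are at 95%, from the moderated SE, and floors of 3 counts cover counting error only. Alternatives were DESeq2 1.42.0, its size factors, total counts, other minimums, RS libraries alone, robust moderation, each library left out and replicate number as a block.

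The labels give all groups replicates 1, 2 and 3. Deviations of same-numbered wt/wt and dcat/dcat libraries from their group means correlated at 0.71, 0.42 and 0.48 over 10998 contigs, and those of different numbers at -0.53 to 0.28, so that numbers were taken to pair the RS libraries. The pairing comes from this check. The study's reporting summary puts a mouse of each genotype in each sorting session, without saying which sessions a numbered pool drew on. No libraries held identical values.

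Named contigs and genes are those called with or without the block over all libraries, the 10 per direction with a symbol and the smallest p among groups that do not overlap, the 20 most abundant genes, 18 genes the study discusses, and at most 4 per list (highest level, smallest p, and highest and lowest difference at 50 CPM or more). Members, lists and tests were chosen with earlier results of these data known. Scripts were tested on simulated counts that held no effect of replicate number, with changes placed only in contigs of higher read count. The simulation therefore did not cover calls at low counts or variation with replicate number.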

Additional observations from a re-analysis of the deposited data

Results flagged for a closer look

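For a pair of contigs the genotypes lay apart in RS and lay apart in the opposite direction in ES, among the 20 named for having groups apart in RS. The contig of the collagen gene Col20a1 had 3, 7 and 11 reads in wt/wt RS and 16, 12 and 14 in dcat/dcat RS, and 31, 38 and 18 reads in wt/wt ES and 24, 16 and 28 in dcat/dcat ES. The log2 difference in RS exceeded that in ES by 1.85 (edgeR interaction q = 1). The contig of Gml, a gene of the GPI-anchored Ly6 family, had 12, 5 and 12 reads against 1, 4 and 4 in RS and 2, 3 and 1 reads against 6, 8 and 13 in ES. Its interaction was -3.25 on the log2 scale (edgeR q = 1). Neither interaction passed the adjustment over all contigs, and both contigs were chosen on their RS values, which are part of the interaction. Over all contigs 0 interactions were called by edgeR without the block, with 166 at an unadjusted p under 0.05. That fit leaves out any pairing of RS and ES libraries.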

How the results depend on the processing

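Without replicate number in the model, 0 contigs were called under each alternative run: DESeq2, its size factors, total counts, the other minimums on reads, RS libraries alone, robust moderation and each library left out. With the pairing of replicate numbers as a block the contig calls went from 0 to 4 over all libraries, 5 within stage and 11 in RS alone, and the gene calls from 0 to 4, 5 and 8. DESeq2 called 1 gene (Mnd1). Leaving out a library gave 0 to 2 gene calls, B4A_dup6413 and Nek7 without RS wt/wt replicate 3 and Mnd1 without RS dcat/dcat replicate 1. The number of contigs with genotypes apart was 575 with total counts and 592 with DESeq2's size factors.

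Differences near 0 turned with single libraries. With a library left out, log2 differences ran from -0.26 to 0.32 for Prm1, -0.18 to 0.36 for Prm2, -0.23 to 0.36 for Tnp1, -0.17 to 0.37 for Tnp2, -0.41 to 0.04 for Prm3, -0.04 to 0.13 for Tcte3, -0.10 to 0.05 for Ldhc, -0.16 to 0.05 for Odf1, -0.32 to 0.36 for the Odf2 contig, -0.04 to 0.03 for Papolb, -0.01 to 0.29 for Tent5c, -0.03 to 0.36 for Gapdhs, -0.06 to 0.43 for Hspa1l, -0.24 to 0.22 for Hils1, -0.17 to 0.09 for Meig1, -0.06 to 0.19 for Pabpc1, -0.04 to 0.06 for Tmsb10, -0.01 to 0.13 for mt-Co1, -0.07 to 0.16 for mt-Co2, -0.24 to 0.01 for the Psmc3ip contig and -0.07 to 0.88 for Gpx4-ps2. Papolb was at -0.01 with total counts, -0.02 without a minimum on reads and -0.01 with 10 reads in each RS library. Of the 92 contigs and genes recomputed, these 21 turned under at least 1 alternative. Differences of shares, in percentage points, ran from -0.609 to 0.724 for the 10 most abundant contigs, -0.0434 to 0.00271 for repeats, -0.0441 to 0.0963 for mitochondrially encoded contigs, -0.386 to 0.186 for ribosomal protein contigs and -0.559 to 0.759 for protamine and transition protein contigs with a library left out. Outside the 10 most abundant contigs they were -0.0117 for mitochondrially encoded and -0.00121 for protamine and transition protein contigs. The cause was not tested. Medians of the 27 lists lay between -0.23 and 0.36 over all alternatives. The exact paired test of the shares, added after seeing the data, could not reach 0.05, since 3 pairs give no p under 0.25. Intervals inside 2-fold were rarest under 10 CPM (15.2% of genes).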

Other observations

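Sums over sex chromosomes were taken after the data had been seen. The 55 tested Y-linked contigs summed to 1709, 1764 and 1678 CPM in wt/wt and 1664, 1558 and 1447 CPM in dcat/dcat. The genotypes did not overlap (exact two-sided permutation test, p = 0.1, the smallest that 3 against 3 can give). Of these contigs 12 were higher and 43 lower, with a median log2 difference of -0.15, and the medians within replicate numbers 1, 2 and 3 were -0.07, -0.17 and -0.21. None had an unadjusted p under 0.05 by edgeR. The 186 X-linked contigs summed to 6057, 7552 and 8843 CPM against 6377, 7008 and 8020 CPM (exact p = 0.8), with 68 higher and 118 lower and a median of -0.07. Contigs of one chromosome share their libraries and are not independent.

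Single genes that followed the replicate number were also picked after the fact. Of 2957 genes at 50 CPM or more, 1020 were higher in numbers 2 and 3 than in number 1 in both genotypes and 414 were lower (48.5% together). Gm26657 had 0.735, 123 and 150 CPM in wt/wt and 0.957, 102 and 122 CPM in dcat/dcat. The Gpx4 copy Gpx4-ps2 had gene sums of 107, 526 and 466 CPM against 138, 799 and 556 CPM. Lrrc41 went the other way, with 97.1, 44.7 and 53.3 CPM against 100, 38.9 and 55.6 CPM. In 1919 of 7284 genes (26.3%) the sum of squares per degree of freedom was larger for genotype than for number.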
